A study of Mus musculus with 6 samples.

Results

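The genes of sterol synthesis, of sterol transfer and efflux, and of their control by the SREBP transcription factors were followed through 5-azacytidine treatment of mouse myoblasts. The set was fixed as 30 genes by name, and its members were the probe sets whose only gene symbol in the platform annotation was 1 of these. Of the 30 genes, 28 were measured, by 64 probe sets, among 18193 genes measured in all. Acat2 and Nr1h2 had no such probe set and are not analysed here. The cells were C2C12, an established line of mouse myoblasts that proliferate in serum and can differentiate into muscle fibres. They were seeded at 1500 per square centimetre in medium with 10% newborn calf serum and, after 1 day, were left untreated or were given 10 µM 5-azacytidine (5AC) in the same medium for 3 days. 5AC is a cytidine analogue that is incorporated into RNA and DNA and traps DNA methyltransferases. Total RNA from 3 untreated and 3 5AC samples was hybridised to 6 Affymetrix GeneChip mouse arrays. The labels do not say whether these samples were separate cultures, so each p-value reflects how far the arrays differed from one another, a spread that may be purely technical. The study's purpose, per its title, was to find how 5AC changes gene expression in these cells.

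Cholesterol is built from acetyl-CoA through mevalonate, isoprenoid diphosphates, squalene and lanosterol. Its supply is sensed in the endoplasmic reticulum: when sterols are plentiful, INSIG proteins hold the SCAP escort and its SREBP cargo there, and when sterols fall, SREBP travels to the Golgi, is cleaved, and switches on the genes of synthesis and uptake. SREBP2 (Srebf2) acts mainly on sterol genes and SREBP1 (Srebf1) mainly on fatty acid genes. Cultured cells take up cholesterol from serum lipoproteins and release it from lysosomes through the NPC proteins, and excess is exported by the ABC transporters that the LXR receptors induce.

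Every array value is an intensity on a linear scale, and differences are log2 differences, 5AC minus untreated, with 1 added before the logarithm. A gene was called lower or higher when its adjusted p was under 0.05 in limma, with Benjamini-Hochberg adjustment over all 18193 genes. A gene's values are those of its brightest probe set on average, and levels are not compared between genes because probe sets differ in brightness. Array medians were 20.36 to 21.04, and log2 values of arrays correlated at 0.965 to 0.971 inside a group and at 0.949 to 0.954 across groups.

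The labelled cell type was checked against markers. Of 8 myoblast markers, 0 were higher and 6 lower in 5AC, beside 13.8% of all genes called lower and 23.9% of the brighter genes. Their summed intensity was 15284 to 15737 on untreated and 13810 to 14702 on 5AC arrays. Most of that sum came from Vim, an intermediate filament gene of many cell types, and the other 7 summed to 5750 to 6060.0 untreated and 4093 to 4285 in 5AC. Itga7, a laminin receptor subunit, went lowest, to 43.2% of its untreated mean. Myod1, the myoblast determination factor, went from a mean of 508 to 349 and the intermediate filament gene Des from 1041 to 887. Summed intensities of other cell types were 57.9 to 65.2 untreated and 36.2 to 45.6 in 5AC for 5 hepatocyte markers, 78.4 to 97.0 and 69.4 to 93.3 for 5 adipocyte markers, 222.5 to 226.0 and 198.1 to 213.5 for 6 macrophage markers, and 93.4 to 122.0 and 115.8 to 128.9 for 5 steroidogenic markers. The defining genes Alb of hepatocytes and Adipoq of adipocytes had mean intensities of 2.65 and 2.67 untreated and 2.25 and 3.26 in 5AC. Not all of these markers were dim, as some lay above 42.8, the median of all gene means. Retn of adipocytes read 54.5 untreated and 49.9 in 5AC, and Star of steroidogenic cells 61.6 and 68.1. The macrophage markers Cd14 and Csf1r read 80.6 and 63.7 untreated and 68.5 and 56.1 in 5AC. Of the markers of these other types, 1 was called, Cyp7a1, at 20.4 untreated and 15.8 in 5AC. The part of the drop in myoblast markers in the sterol results was not tested. In bulk RNA, fewer cells that express a gene and less RNA of it per cell cannot be told apart.

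Transcripts of sterol synthesis enzymes were lower in 5AC along nearly the whole route, while sterols, flux and protein were not measured. Of 18 measured synthesis enzymes, 16 were called lower and 0 higher, while Mvd and Lss did not pass, beside 13.8% of all genes called lower and 15.6% called higher. Because 27 of the 28 genes lie among the brighter 9097 genes of the table, where calls are more frequent, the share called lower there, 23.9%, is the nearer background. The median log2 difference of the 18 enzymes was -0.88, against 0.01 over all genes and 0.02 over the brighter ones. At least 2-fold decreases were called for 8 of the 18, beside 2.09% of all genes and 2.76% of the brighter ones. In 17 of the 18 all 5AC arrays lay below all untreated arrays, beside 21.2% of all genes and 33.5% of the brighter ones. A set chosen with earlier results of these data known is not independent evidence of its direction. This count describes the list and was not tested as a set.

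**Figure D1:**
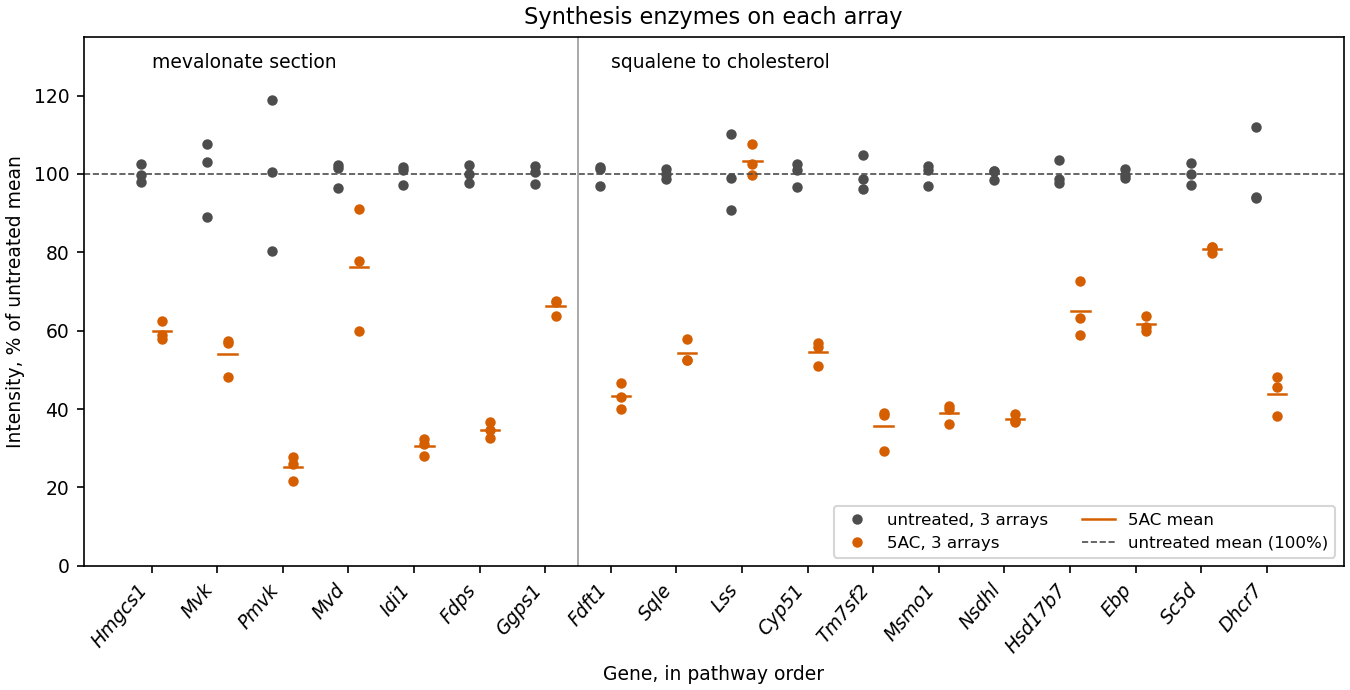
Intensity of the 18 synthesis enzymes on each array, in percent of the gene's untreated mean (vertical axis), in pathway order (horizontal axis). Grey points are 3 untreated arrays, orange points 3 5AC arrays and orange lines the 5AC means, which lie between 25.2% for Pmvk and 103% for Lss.

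The first section of the pathway makes and consumes mevalonate. Of its 7 measured enzymes 6 were lower, beside 13.8% of all genes and 23.9% of the brighter ones. Hmgcs1, the cytosolic HMG-CoA synthase that commits acetyl units to the pathway, read 1483, 1551 and 1509 on untreated and 877, 947 and 894 on 5AC arrays. The groups did not overlap, and the spread within each was small beside the gap. Its log2 difference was -0.74 ± 0.06 (SE, n = 3 per group, adjusted p = 0.00116). Mvk, mevalonate kinase, read 125, 103 and 120 untreated and 55.9, 66.0 and 66.6 in 5AC, a log2 difference of -0.88 ± 0.11 (adjusted p = 0.00436).

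Phosphomevalonate kinase, Pmvk, had the lowest log2 difference among the 28 genes with 1 added before the logarithm, but not with 16 added. It read 77.1, 96.4 and 114 on untreated and 24.9, 26.7 and 20.7 on 5AC arrays, so the untreated arrays were spread widely but all lay far above the treated ones. The 5AC mean was 25.2% of the untreated mean, and the log2 difference was -1.94 ± 0.17 (adjusted p = 0.00174) and was -1.47 with 16 added, where Idi1 (-1.64) and Fdps (-1.50) were lower. With 1 added, 22 of the brighter 9097 genes had a lower log2 difference than Pmvk. Mvd, the decarboxylase of the next step, read 86.0, 85.3 and 81.1 untreated and 50.5, 65.4 and 76.6 in 5AC. Its groups did not overlap, but the 5AC arrays were so uneven that the log2 difference, -0.40 with a 95% interval from -0.81 to 0.0015, did not pass (adjusted p = 0.127). It did pass with an intensity trend and robust moderation (adjusted p = 0.0205) and among brighter genes only (adjusted p = 0.0367). A second Mvd probe set, with means of 69.6 untreated and 67.5 in 5AC, overlapped and gave -0.05 (limma adjusted p = 0.888 over all probe sets). With the mean of its probe sets, Mvd was at -0.23 (adjusted p = 0.393).

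Idi1, the isomerase that interconverts the isoprenoid diphosphates, read 744, 712 and 740 on untreated and 206, 237 and 228 on 5AC arrays. The treated arrays stood at 30.6% of the untreated mean, with a log2 difference of -1.71 ± 0.07 (adjusted p = 0.000418). Fdps, farnesyl diphosphate synthase, which feeds both sterols and prenylated proteins, read 1401, 1432 and 1370 untreated and 456, 485 and 516 in 5AC (log2 difference -1.53 ± 0.07, adjusted p = 0.000443). Both drops were many times the spread within groups. Ggps1, geranylgeranyl diphosphate synthase, draws farnesyl units away from sterols towards protein prenylation. It read 234, 245 and 241 untreated and 162, 161 and 153 in 5AC, a smaller decrease of -0.59 ± 0.05 on the log2 scale (adjusted p = 0.00183).

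From squalene onward, 10 of 11 enzymes were lower, beside 13.8% of all genes and 23.9% of the brighter ones. Squalene synthase, Fdft1, the first enzyme committed to sterols, read 961, 967 and 922 on untreated and 381, 410 and 444 on 5AC arrays (log2 difference -1.21 ± 0.07, adjusted p = 0.000783). Squalene epoxidase, Sqle, which needs oxygen and is a control point of the route, read 1067, 1081 and 1053 untreated and 561, 561 and 617 in 5AC (-0.88 ± 0.06, adjusted p = 0.00100). Neither gene's groups overlapped. Cyp51, the lanosterol demethylase, read 524, 555 and 547 untreated and 277, 302 and 308 in 5AC, a log2 difference of -0.87 ± 0.07.

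Nsdhl, Msmo1 and Tm7sf2 act on the sterol ring after Cyp51. Nsdhl, a sterol dehydrogenase, read 582, 581 and 569 on untreated and 212, 214 and 223 on 5AC arrays. The arrays of each group lay close together, with SDs of 7.12 and 5.81, and the log2 difference was -1.41 ± 0.05 (adjusted p = 0.000341). Msmo1, the methylsterol monooxygenase that acts with it, read 1036, 1079 and 1090 untreated and 387, 427 and 435 in 5AC (-1.36 ± 0.07). Tm7sf2, a sterol reductase, read 95.3, 97.8 and 104 untreated and 38.2, 29.1 and 38.6 in 5AC (-1.47 ± 0.13, or -1.17 with 16 added). These 3 genes stood at 35.6% to 39.0% of their untreated means. Hsd17b7, the ketoreductase that acts beside them, stood at 64.9% (-0.62 ± 0.09).

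The last steps were uneven. Dhcr7, which makes cholesterol from its immediate precursor, read 116, 116 and 138 on untreated and 56.4, 47.2 and 59.5 on 5AC arrays (log2 difference -1.17 ± 0.12, adjusted p = 0.00254). Ebp, the sterol isomerase, went from a mean of 624 ± 7.79 to 384 ± 11.9 (SD, n = 3 each), and Sc5d, the sterol desaturase, from 258 ± 7.16 to 209 ± 2.14. Both were called lower, with log2 differences of -0.70 ± 0.05 and -0.30 ± 0.05, and Sc5d was the smallest called decrease among the enzymes by this probe set. Its call was lost in the fit with a replicate block (adjusted p = 0.0644).

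Promoters of enzymes that fell are shown so that the letters SREBP and its partners are known to bind can be seen. SREBP binds the sterol regulatory element, usually next to sites of NF-Y, and as a helix-loop-helix factor it can also bind E-boxes. RefSeq windows of 250 bases before the start (build GRCm38.p6) were held for 24 of the 30 genes, 32 windows in all. They were searched on both strands for TCACNCCAC, the core of the sterol element, for CCAAT, the NF-Y box, and for CACGTG, an E-box. Matches that overlap were each counted. The sterol core was present in 1 of 24 genes, Hmgcs1, and 3.12% of their windows. Over all genes it was present in 1.04% of 32536 windows of the same length, with repeats removed except among the members. A CCAAT was present in 20 of 24 genes and 65.6% of their windows, against 33.8% of all windows. An E-box was present in 6 genes, Abca1, Dhcr7, Hsd17b7, Insig1, Sc5d and Scap, in 18.8% of their windows against 6.04% of all windows. A match is only a run of letters. No match says only that these letters are not in the window.

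Shown are Hmgcs1, for its sterol core from base 137 to base 129 before the start, and Idi1, Tm7sf2 and Nsdhl, the largest decreases among genes with 1 window. They lie at chr13:119690101-119690350 (plus strand), chr13:8885356-8885605 (plus), chr19:6067851-6068100 (minus) and chrX:72918271-72918520 (plus). Capitals mark the motif matches, and a CCAAT box on the opposite strand reads ATTGG.
Hmgcs1: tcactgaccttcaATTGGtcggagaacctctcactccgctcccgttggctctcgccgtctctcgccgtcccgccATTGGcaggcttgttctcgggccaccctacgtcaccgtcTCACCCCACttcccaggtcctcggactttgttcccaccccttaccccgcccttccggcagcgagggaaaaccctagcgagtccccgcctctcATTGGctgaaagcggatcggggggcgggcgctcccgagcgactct
Idi1: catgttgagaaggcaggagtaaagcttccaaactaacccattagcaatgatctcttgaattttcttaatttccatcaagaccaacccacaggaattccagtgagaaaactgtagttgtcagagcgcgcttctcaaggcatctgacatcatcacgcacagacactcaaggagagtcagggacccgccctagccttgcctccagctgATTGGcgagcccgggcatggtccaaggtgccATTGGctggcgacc
Tm7sf2: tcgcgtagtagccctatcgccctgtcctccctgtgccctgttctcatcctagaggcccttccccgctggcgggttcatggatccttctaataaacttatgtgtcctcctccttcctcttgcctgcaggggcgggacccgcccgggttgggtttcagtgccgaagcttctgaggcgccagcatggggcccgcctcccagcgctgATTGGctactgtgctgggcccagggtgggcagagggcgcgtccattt
Nsdhl: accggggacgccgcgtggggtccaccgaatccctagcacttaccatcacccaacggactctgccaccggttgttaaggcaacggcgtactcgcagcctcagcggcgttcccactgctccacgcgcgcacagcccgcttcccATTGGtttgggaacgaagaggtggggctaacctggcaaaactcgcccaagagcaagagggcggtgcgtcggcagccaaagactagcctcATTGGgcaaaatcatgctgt
Hmgcs1 held 4 matches, 1 sterol core and 3 NF-Y boxes. Idi1 and Nsdhl held 2 NF-Y boxes each and Tm7sf2 held 1. Since the last 3 genes were picked for their large decreases, the 4 windows say nothing of how motifs go with the size of a change.

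**Figure D2:**
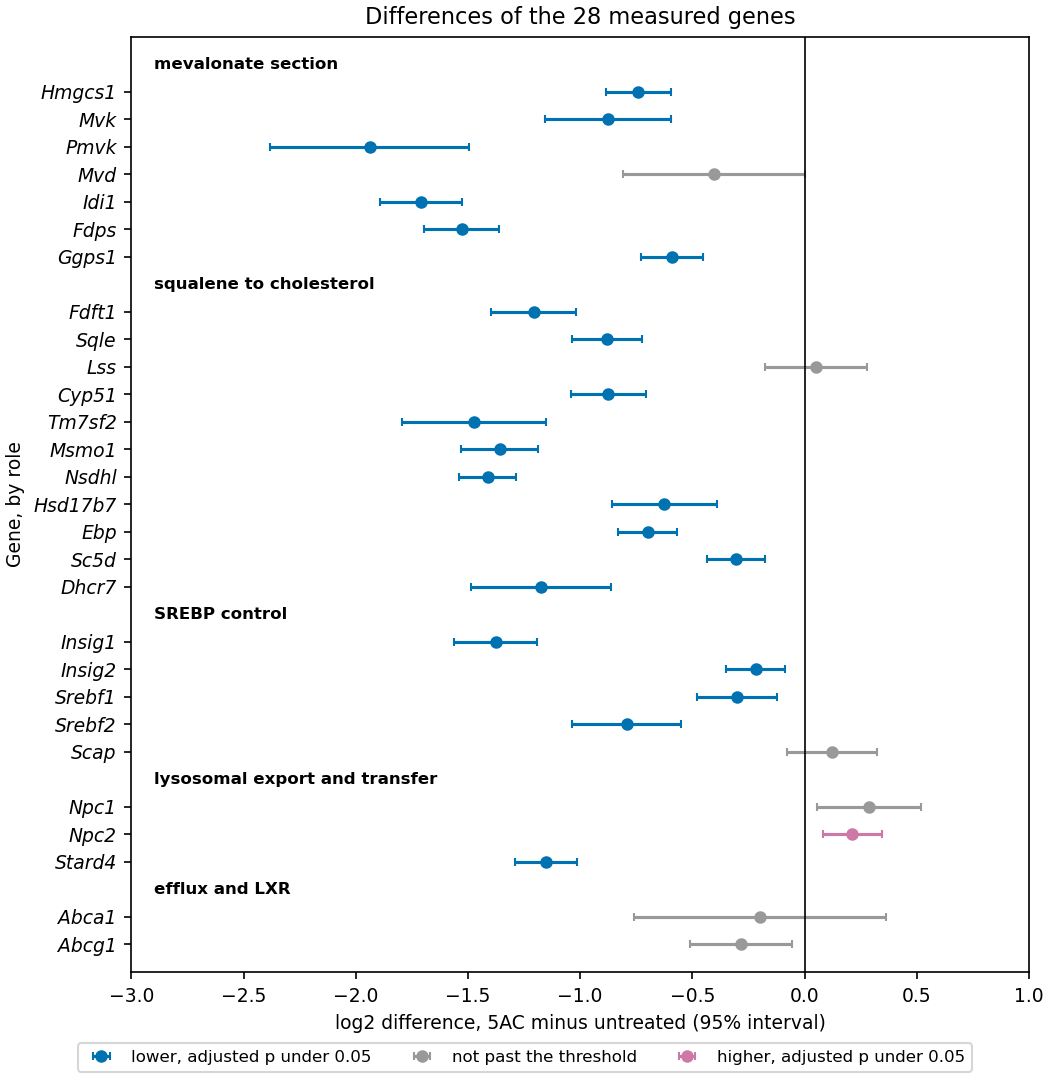
log2 differences, 5AC minus untreated (horizontal axis), of the 28 measured genes grouped by role (vertical axis), with 95% intervals from limma. Blue marks 21 genes called lower, pink the 1 called higher and grey the 6 not past the threshold.

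Among the genes of SREBP control, 4 of 5 were called lower and 0 higher, but with very different sizes. Beside them, 13.8% of all genes and 23.9% of the brighter ones were called lower, and 15.6% and 24.5% higher. Insig1, the retention protein that is itself an SREBP target, read 635, 650 and 630 on untreated and 226, 263 and 248 on 5AC arrays. The groups were far apart, with a log2 difference of -1.38 ± 0.07 (adjusted p = 0.000608). By this value Insig1 lay between the enzymes Nsdhl (-1.41) and Msmo1 (-1.36). Its paralogue Insig2, which holds SCAP in the same way, read 334, 348 and 347 untreated and 289, 302 and 293 in 5AC (log2 difference -0.22 ± 0.05, adjusted p = 0.0307). Insig2 was lost as a call whenever any 1 array was left out (adjusted p from 0.0607 to 0.102) and in the fit with a replicate block (adjusted p = 0.100). Its other 2 probe sets had differences of -0.11 and -0.01, neither past the threshold. Within arrays, the log2 ratio of Insig1 to Insig2 changed by -1.16, with SDs of 0.03 untreated and 0.08 in 5AC. The exact two-sided permutation test gave p = 0.1, the smallest that 3 against 3 arrays allows, and 0.1 after adjustment over the 2 paralogue pairs compared.

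The log2 differences of the 2 SREBP genes also differed in size, though the ratio test given below could not pass 0.05. Srebf2, the sterol regulator, read 220, 262 and 242 on untreated and 129, 138 and 150 on 5AC arrays (log2 difference -0.79 ± 0.10, adjusted p = 0.00378). Its other probe set gave -0.85, so both showed the same decrease. Srebf1 read 318, 300 and 343 untreated and 251, 263 and 265 in 5AC (-0.30 ± 0.07, adjusted p = 0.0297). The Srebf1 groups lay close together, and its call was lost with quantile normalization (adjusted p = 0.0515), with a replicate block (adjusted p = 0.0836) and without any 1 array other than untreated replicate 2 (adjusted p from 0.0616 to 0.0977). The log2 ratio of Srebf2 to Srebf1 changed by -0.49, with SDs of 0.18 untreated and 0.07 in 5AC (exact permutation p = 0.1, the smallest possible here, and 0.1 after adjustment over 2 pairs).

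Scap, the escort protein, did not share the decrease. It read 312, 323 and 349 on untreated and 347, 341 and 386 on 5AC arrays. The groups overlapped, and the log2 difference was 0.12 with a 95% interval from -0.08 to 0.32 (adjusted p = 0.321), which leaves out a decrease of the size seen for Insig1 or Srebf2. A dim second probe set of Scap, with means of 13.7 and 8.41, gave -0.61 (adjusted p = 0.152 over all probe sets).

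**Figure D3:**
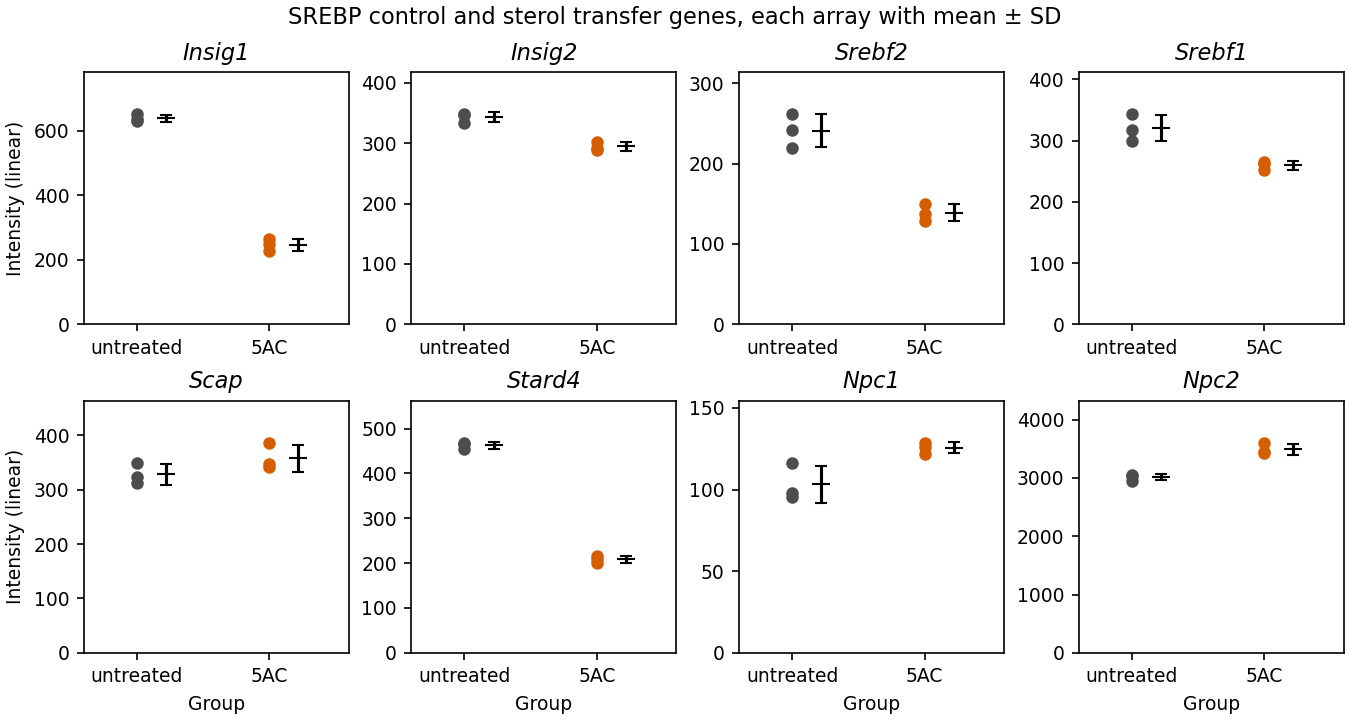
Intensity on each array (linear vertical axis from 0, scaled per gene) of 5 SREBP control genes and 3 sterol transfer genes in untreated (grey) and 5AC (orange) samples, with bars for mean ± SD, n = 3. Insig1, Srebf2 and Stard4 show wide gaps between groups, Insig2, Srebf1 and Npc2 narrow ones, and Scap overlaps.

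Genes that move sterols inside the cell went in different directions. Stard4, a soluble sterol carrier and an SREBP2 target, read 468, 466 and 454 on untreated and 209, 215 and 200 on 5AC arrays. All of its 3 probe sets were lower, from -1.24 to -0.94, and the brightest gave a log2 difference of -1.15 ± 0.05 (adjusted p = 0.000487). Npc2, the soluble lysosomal cholesterol-binding protein, was the 1 gene called higher. It read 3040, 3053 and 2947 untreated and 3445, 3432 and 3601 in 5AC, 1.16-fold on the means and 0.21 ± 0.05 on the log2 scale (adjusted p = 0.0331). This call was lost with median centring (adjusted p = 0.0569), with a replicate block (adjusted p = 0.125) and without any 1 array (adjusted p from 0.0786 to 0.0909).

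Npc1, the membrane partner that receives cholesterol from NPC2, read 97.6, 95.7 and 116 on untreated and 122, 126 and 129 on 5AC arrays. All treated arrays lay above all untreated ones, as for Npc2, for 24.2% of all genes and for 36.1% of the brighter ones, but the log2 difference of 0.29 with a 95% interval from 0.05 to 0.52 did not pass (adjusted p = 0.0737). It did pass without untreated replicate 3, the highest untreated array (0.37, adjusted p = 0.0193), with 16 added (adjusted p = 0.0482), among brighter genes only (adjusted p = 0.0162) and with an intensity trend and robust moderation (adjusted p = 0.0179). Neither lysosomal gene was lower by its brightest probe set.

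Of the efflux transporters, Abca1 and Abcg1 were not called in either direction, while Abca7, given below with the further lists, was lower. Abca1, which loads cholesterol onto apolipoproteins and is an LXR target, was near background, at 18.3, 25.0 and 23.8 untreated and 14.4, 24.0 and 20.4 in 5AC. The groups overlapped, and the interval of its log2 difference ran from -0.76 to 0.36, too wide to show a moderate change. Abcg1, which exports sterols to lipoprotein particles, read 111, 101 and 94.9 untreated and 89.2, 84.5 and 77.6 in 5AC. The groups did not overlap, and the log2 difference of -0.28 ± 0.09 missed the threshold (adjusted p = 0.0699), but passed with 16 added (adjusted p = 0.0480), among brighter genes only (adjusted p = 0.0149) and with an intensity trend and robust moderation (adjusted p = 0.0325).

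**Figure D4:**
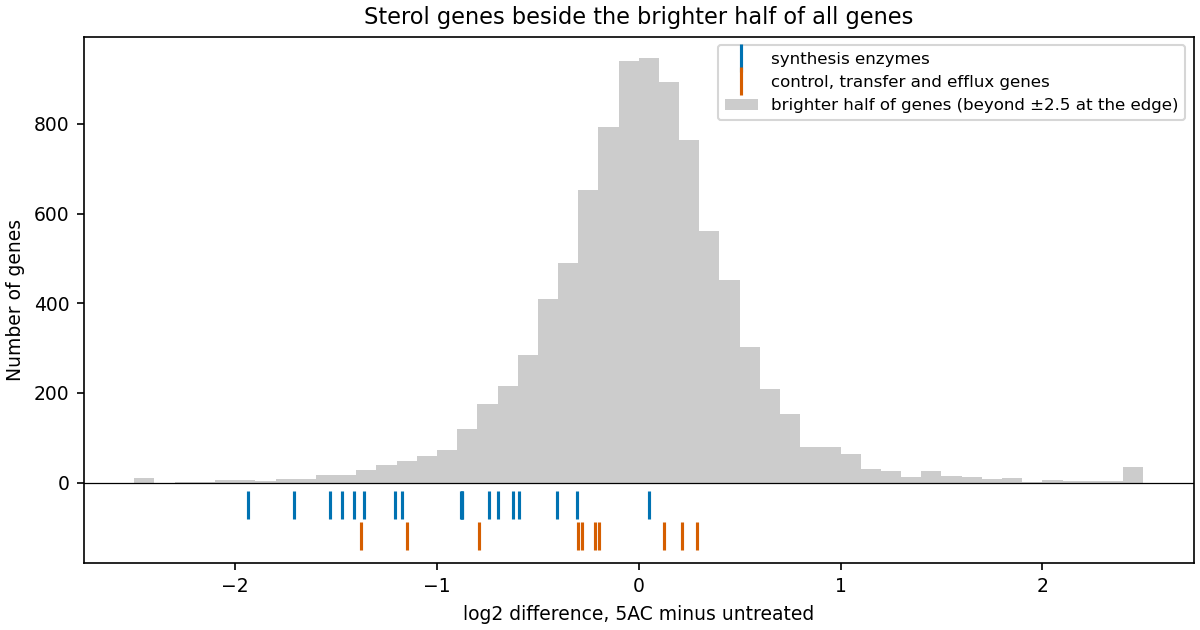
Number of the brighter 9097 genes (vertical axis) by log2 difference, 5AC minus untreated (horizontal axis, values past 2.5 drawn at the edge), with ticks for 18 synthesis enzymes in blue and 10 control, transfer and efflux genes in orange. The enzymes lie between -1.94 and 0.05 with a median of -0.88, and the other 10 genes between -1.38 and 0.29 with a median of -0.25.

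Probe sets of a gene did not always give the same answer. Fitted separately and adjusted over 34945 probe sets, 35 of the 64 probe sets were lower, 1 was higher and 28 did not pass, beside 11.3% of all probe sets called lower and 11.3% called higher. All probe sets were lower for 5 of the 19 genes that had several, namely Hmgcs1 (5 probe sets, -0.94 to -0.72), Mvk, Idi1, Srebf2 and Stard4. For Fdps, Fdft1, Msmo1 and Cyp51 the probe sets that did not pass were dim, with untreated means of 5.79 to 25.0. Their log2 differences ran from -0.97 for Cyp51 to 0.35 for Fdft1.

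For Lss, Ggps1, Sc5d and Npc2 brighter probe sets disagreed as well. Lss, lanosterol synthase, which closes the sterol rings, read 128, 140 and 156 on untreated and 141, 152 and 145 on 5AC arrays by its brightest probe set, whose suffix s marks a match to transcripts of more than 1 gene (log2 difference 0.05, 95% interval -0.18 to 0.28). A dimmer Lss probe set without a suffix had a mean of 58.8 ± 3.03 untreated and 28.9 ± 5.91 in 5AC, a log2 difference of -1.01 ± 0.15 (adjusted p = 0.0102 over all probe sets). So the count of 16 lower enzymes does not include Lss, although 1 of its 3 probe sets was lower. The count does include Ggps1, with 2 of 4 probe sets lower, and Hsd17b7, with 1 of 4 lower. Ggps1 had 2 lower probe sets, at -0.59 and -0.76, and 2 with differences of 0.08 and 0.06 (adjusted p = 0.408 and 0.670).

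Sc5d ranged from -0.30 by its brightest probe set to -1.33 ± 0.08 by another, which went from 79.1 ± 1.98 to 31.0 ± 2.57. Npc2 was called in both directions: its probe set with suffix a was higher (0.29, adjusted p = 0.0462), while a dimmer probe set fell from 213 ± 11.2 to 157 ± 10.8 (-0.44, adjusted p = 0.0193). The brightest Npc2 probe set did not pass in this fit (adjusted p = 0.0607). Hsd17b7 was called lower only by its brightest probe set, whose suffix x marks probes that may bind other transcripts, and 3 dimmer ones, with untreated means of 15.9 to 50.5, gave -0.17, -0.17 and 0.26, none past the threshold. Which probe set follows the main transcript was not tested.

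**Figure D5:**
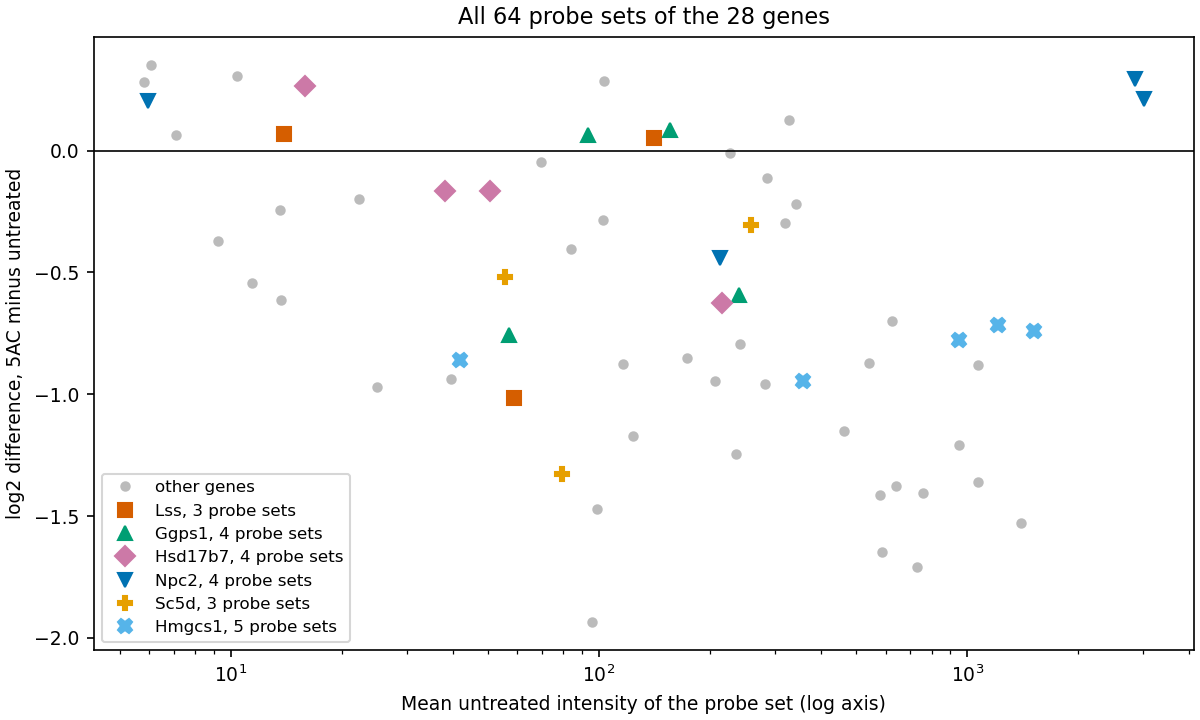
log2 difference, 5AC minus untreated (vertical axis), against the mean untreated intensity (horizontal log axis) of all 64 probe sets of the 28 genes. Lss, Ggps1, Hsd17b7, Npc2 and Sc5d have probe sets far apart, while the 5 of Hmgcs1 lie between -0.94 and -0.72. Among the other genes in grey, Fdps (-1.53 to 0.28), Fdft1 (-1.41 to 0.35) and Msmo1 (-1.36 to -0.24) range wider, through dim probe sets.

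Other genes of sterol handling, listed by role, went in both directions, and their counts are to be read beside 13.8% of all genes called lower and 15.6% called higher (23.9% and 24.5% of the brighter genes). Of 5 further synthesis genes 1 is analysed here, Erg28, a scaffold of the demethylation complex, which fell from 433 ± 21.9 to 326 ± 17.5 (log2 difference -0.41 ± 0.07, adjusted p = 0.0109). Of 8 measured genes of uptake and lysosomal release, 3 rose, 3 fell and 2 did not pass, with a median log2 difference of -0.09. The lipoprotein receptor gene Vldlr rose from a dim 14.5 ± 4.39 to 36.6 ± 1.78 (1.32 ± 0.23, or 0.80 with 16 added) by 1 of its 6 probe sets, and the scavenger receptor gene Cd36 from 9.44 ± 1.28 to 21.1 ± 2.26 (1.09 ± 0.12, or 0.54 with 16 added). Brighter receptor genes fell, and they are named here after their values were seen. Lrp8, a lipoprotein receptor of the same family as Vldlr, went from 112 ± 9.90 to 52.6 ± 1.39 (-1.07 ± 0.08, or -0.90 with 16 added), with 2 of its 3 probe sets called lower. Lrp1, a large receptor for lipoprotein remnants and many other ligands, went from 420 ± 15.6 to 219 ± 14.1 (-0.94 ± 0.07, or -0.89 with 16 added), with 1 of its 2 probe sets called lower. With 1 added, both rises were larger in size than either decrease, and with 16 added both decreases were larger than either rise. Of 8 genes of SREBP processing and sterol-regulated degradation, 1 was higher and 2 lower (median -0.09). Mbtps2, the second SREBP protease, fell by 0.39 on the log2 scale and Syvn1, an endoplasmic reticulum ubiquitin ligase, rose by 0.47.

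Of 11 genes of LXR partners, efflux and oxysterol enzymes, 1 rose, 1 fell and 9 did not pass (median 0.17). Abca7, a transporter related to Abca1, fell from 189 ± 19.7 to 67.8 ± 4.30 (-1.46 ± 0.10, adjusted p = 0.000983), and the nuclear receptor gene Rxrb rose by 0.71. Of 12 genes of intracellular sterol transport and esterification, 4 were higher and 2 lower (median 0.04). Gramd1c, of a family that carries cholesterol from the plasma membrane inward, rose from 3.16 ± 2.80, with 1 untreated array below 0, to 73.0 ± 2.30 (4.52 ± 0.74, or 2.22 with 16 added). Nceh1, a cholesterol ester hydrolase, rose by 0.95, and all 3 of its probe sets were called higher. Of 12 genes of the isoprenoid branch that leads away from sterols, 1 was higher and 2 lower (median 0.06), with the prenyltransferase subunit Fnta at 0.57 and Coq2, of ubiquinone synthesis, at -0.33. Against these lists, with medians from -0.09 to 0.17 apart from the single gene Erg28, the synthesis enzymes had a median of -0.88. The 0.17 is the value of Cyp46a1, at 13.9 untreated and 15.8 in 5AC. Several other genes of that list were below the array medians, such as Apoe, Cyp27a1 and Abca2 at 2.34, 6.57 and 10.3 untreated. Genes so dim can hardly show a decrease. The difference between lists was not tested.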

How the data were processed

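RNA of 3 untreated and 3 5AC samples of C2C12 cells was measured, with groups and replicate numbers from the sample titles. The authors deposited 1 linear intensity per probe set and array. GCOS 1.4 and R 2.4.1 are named, without a role, per the submitters' processing notes, and how probes were summarized and normalized is not given in the sources used here. The number of arrays limits the precision. Of 45101 probe sets, 34945 non-control ones had 1 gene symbol, and all 28 measured genes matched RefSeq by gene number.

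Values below 0 were set to 0, 1 was added and log2 was taken. The probe set with the highest mean stood for a gene. limma 3.58.1 (lmFit, then eBayes; R 4.3.3) tested 5AC minus untreated, two-sided, with Benjamini-Hochberg adjustment over 18193 genes. The prior degrees of freedom were 1.20, and 95% intervals are the moderated ones. The same procedure was run on simulated data with independent noise for each gene and array. Far fewer genes were changed there than were called here, so that run cannot vouch for these calls. A whole-table fit with 1 line per probe set gave the probe-set values.

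The genes and lists were chosen with earlier results of these data known. All listed genes are counted, and up to 2 per further list, those with the largest difference past the threshold, are named. Lrp8 and Lrp1 were added to these after their values were seen. Printed promoters were restricted to genes with 1 window after the windows were read. Alternatives were quantile normalization, median centring, an offset of 16, brighter genes only, other probe-set rules, an intensity trend with robust moderation, a replicate block, a threshold of 0.01 and leaving out each array.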

Additional observations from a re-analysis of the deposited data

How the results depend on the processing

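Of the 28 genes, 15 kept both direction and call under every alternative that gave them a value, and all 15 were lower: Hmgcs1, Mvk, Pmvk, Idi1, Ggps1, Fdft1, Sqle, Cyp51, Tm7sf2, Nsdhl, Ebp, Dhcr7, Insig1, Srebf2 and Stard4. The count of lower enzymes was 14 to 17 and of lower genes 17 to 23 over the alternatives, and with any 1 array left out 16 and 19 to 20. The count of higher genes, 1, was 0 with median centring, the mean of all probe sets, 1 line per probe set, the replicate block and a threshold of 0.01, and 2 with 16 added, brighter genes only and the intensity trend with robust moderation. Leaving out each array gave 0 to 1. Signs turned for Lss (-0.30 with the mean of its probe sets, -1.01 with probe sets of no letter suffix, and -0.0169 to 0.12 with single arrays left out, negative without untreated replicate 1), Scap (-0.25) and Abca1 (0.056), the last pair with the mean of probe sets. That mean takes in dim probe sets, and with it Fdps (-0.62) and Hsd17b7 (-0.17) were no longer called. Restricting to probe sets with no letter suffix left Msmo1 only its dim probe set (-0.24).

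Over the whole table, 3959 probe sets were lower with 1 line each, against 2517 genes. A replicate block gave 1565 lower and 1672 higher genes and a threshold of 0.01 gave 1402 and 1458, against 2517 and 2836. Leaving out single arrays gave 1836 to 2066 lower and 1853 to 2489 higher, the fewest without 5AC replicate 1. Same-numbered arrays did not deviate together, with correlations of -0.02, -0.0027 and 0.03 over 9097 genes. No array correlated best with its own number. The labels do not state a pairing, and deviations from the mean of only 3 arrays cannot exclude it. With the block, 18 genes and 15 enzymes were lower, and the calls of Sc5d, Insig2, Srebf1 and Npc2 were lost. Levels near background limit what Abca1 and the dim probe sets can show.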

Other observations

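The arrays within a group were not alike for these genes, treated or untreated. Among the 21 genes called lower, 5AC replicate 1 had the lowest of the 3 treated values in 13 and 5AC replicate 3 the highest in 13. Over all 2517 genes called lower, replicate 1 was the lowest treated array in 28.3% and replicate 3 the highest in 41.7%. Untreated replicate 2 was the lowest untreated array in 3 of the 21 genes and the highest in 10. Over the 2517 genes it was the lowest in 31.1% and the highest in 32.6%. Idi1 read 206 on 5AC replicate 1 against 237 and 228 on the others, Insig1 226 against 263 and 248, Fdft1 381 against 410 and 444, and Srebf2 129 against 138 and 150. These gaps are small beside those between the groups. Genes of 1 pathway on 1 array share the sample, so the 13 genes are not 13 independent observations, and no test was made.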
